A study of Mus musculus with 6 samples.

Results

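The genes of the lysosomal proton pump, the cathepsins and the lysosome-associated membrane proteins (LAMPs) were examined in mouse ectopic endometrial lesions with and without Dnmt3a in the donor endometrium. Members were chosen by their symbols alone: all genes named Atp6v0 or Atp6v1, Atp6ap1 and Atp6ap2, the cathepsins named Cts with 1 further letter, and Lamp with a number. This gave 49 of the 56884 genes in the count table, namely 14 genes of the V1 sector, 11 of the V0 sector, 2 accessory subunits, 14 cysteine cathepsins, 4 aspartic or serine cathepsins and 4 LAMP genes. Of these, 37 had enough reads to be tested and 12 did not. The symbols do not depend on the counts, but this group of genes was put forward after KO and WT levels in these same lesions had been seen, so the differences below are a description and not independent evidence of a direction.

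Ectopic lesions were grown from uterine tissue of female donors in wild-type C57BL/6J recipients that carried estradiol pellets, and the RNA of whole lesions was sequenced as poly(A) libraries. The 3 control lesions (WT) came from Dnmt3a f/f donors, which carry the floxed gene without Cre, and the 3 Dnmt3a KO lesions came from Dnmt3a f/f:PR-Cre/+ donors. Donors were 8 weeks old and had received estradiol in both groups. The labels give 4 weeks for all lesions and injection of a tissue suspension, whereas the methods describe a sutured fragment and a shorter time. The Cre is driven by the progesterone receptor gene, so it acts in cells that express this receptor, and immune, vascular and muscle cells that the recipient contributed keep Dnmt3a. In such bulk samples fewer cells of a type and less RNA per cell cannot be told apart.

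Libraries held 45370342 to 57239184 counts. Levels are given as CPM, a gene's count scaled by its library's TMM-adjusted total. Dnmt3a itself was at 52.7, 43.9 and 51.7 CPM in WT lesions and at 30.3, 33.5 and 36.2 CPM in KO lesions, without overlap, and its log2 fold change was -0.57 ± 0.14 (SE). Markers of both parts of the endometrium were found in all 6 lesions, at 771 to 940 CPM in sum for stroma and at 7732 to 17571 CPM for epithelium, without genes that other lists hold. The lesions of a group differed widely in other cells. Summed adipocyte markers stood at 885, 1427 and 6256 CPM in KO lesions and at 1422 to 4344 CPM in WT lesions. Those of mesothelium stood at 27.5, 255 and 142 CPM in KO lesions and at 45.2 to 286 CPM in WT lesions. Those of endothelium stood at 366, 259 and 729 CPM in KO lesions and at 566 to 685 CPM in WT lesions. Summed markers of skeletal muscle stood at 29644 and 31680 CPM in WT replicates 1 and 3 but between 5.54 and 16.2 CPM in the other 4 lesions, and summed neutrophil markers stood at 9888 CPM in WT replicate 2 and between 43.9 and 487 CPM in the other 5.

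The vacuolar ATPase pumps protons into the lysosome. Its V1 sector in the cytosol hydrolyses ATP, and its V0 sector in the membrane carries the protons. The acid it makes activates the cathepsins, proteases that degrade protein in the lysosome, while LAMP1 and LAMP2 are heavily glycosylated proteins that line the inner face of its membrane. Many genes of this system carry an E-box with the core CACGTG near their start, the element bound by TFEB, TFE3 and MITF. Lysosomes are abundant in macrophages, which take up debris and red cells in endometriotic lesions, and they are present in epithelial and stromal cells as well.

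The E-box core was searched on both strands in the 250 bases before the start site in RefSeq promoters (GRCm38.p6), in which 37 of the 49 member genes were matched by symbol. Those without an entry were Atp6v0a2, Atp6v0c-ps1, Atp6v0c-ps2, Atp6v0d2, Atp6v1b2, Atp6v1c1, Atp6v1g1, Atp6v1h, Ctsb, Ctse, Ctsh and Ctsw. It is a palindrome, so both strands give the same sites. CACGTG was present in 7 of these 37 genes (18.9%) and in 6.86% of all 27025 genes in the table. TCACGTGA, which contains it, was present in 3 of 37 (8.11%) and in 0.907% of all genes. The longer form with G before TCACGTGA and C after it was present in 0 of 37 (0%) and in 0.270% of all genes. At so low a share, 37 genes are too few to show a lack of this form. A match describes these letters and is not a measured binding site. Most members searched did not hold CACGTG. The stretches with a match are shown because the E-box is the element through which TFEB and its relatives, described further on, bind lysosomal genes, with CACGTG in capitals and each written 5′ to 3′ on the strand of its gene.
Lamp1, chr8:13159080-13159160, plus strand: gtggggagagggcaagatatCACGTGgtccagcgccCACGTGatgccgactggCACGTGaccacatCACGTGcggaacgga
Atp6v0b, chr4:117887330-117887385, minus strand: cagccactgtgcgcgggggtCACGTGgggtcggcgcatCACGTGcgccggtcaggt
Atp6v1a, chr16:44139365-44139410, minus strand: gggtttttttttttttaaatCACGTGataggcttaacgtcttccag
Ctsa, chr2:164833741-164833772, plus strand: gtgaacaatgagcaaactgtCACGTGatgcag
Ctsd, chr7:142388047-142388077, minus strand: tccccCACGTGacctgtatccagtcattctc
Ctsd, chr7:142387900-142387945, minus strand: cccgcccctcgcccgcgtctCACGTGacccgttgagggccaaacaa
Ctsf, chr19:4855066-4855111, plus strand: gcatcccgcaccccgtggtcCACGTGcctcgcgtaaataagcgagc
Ctsl, chr13:64370731-64370770, minus strand: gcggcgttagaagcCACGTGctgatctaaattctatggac
The Lamp1 stretch holds 4 copies of the motif and that of Atp6v0b holds 2. All these stretches lie upstream of the start site in the RefSeq table.

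Across the 37 tested members KO and WT lesions did not differ in a common direction. The median log2 fold change of KO over WT was 0.03, beside 0.01 over all 18177 tested genes, and single members ranged from -1.84 to 2.15, with 18 below and 19 above 0. For members near 0 the side depended on the scaling, and with upper quartile scaling Atp6v1e1, Atp6ap1, Atp6ap2 and Ctsh moved from below to above 0. No member passed an adjusted p of 0.05 in edgeR's quasi-likelihood test over all genes, where the adjusted p of the members ran from 0.321 to 0.984. The background was as low, with 0.0055% of all genes called lower and 0% called higher. DESeq2 called 0 members in either direction, beside 3.8% of its 20274 genes called lower and 1.51% called higher.

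At an unadjusted p under 0.05, 2 members were lower in KO lesions, Ctsw and Ctse, which is 5.41% of the members beside 8.16% of all genes. At the same level 5 members were higher, Ctsb, Atp6v1h, Atp6v0e, Atp6v0d2 and Atp6v0a4, which is 13.5% beside 6.55% of all genes. Groups did not overlap, with KO lesions all lower, for 1 member (2.70%, beside 8.74% of all genes), and with KO lesions all higher for 4 members (10.8%, beside 10.7%). The last share is that of the background. These counts moved with single lesions. Without WT replicate 2, 10 members lay higher in KO lesions without overlap (27.03%, beside 15.8% of all genes). Without KO replicate 3, 10 lay higher (27.03%, beside 25.0%) and 7 lower (18.9%, beside 22.3%), and without WT replicate 1, 6 lay lower (16.2%, beside 12.3%).

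**Figure D1:**
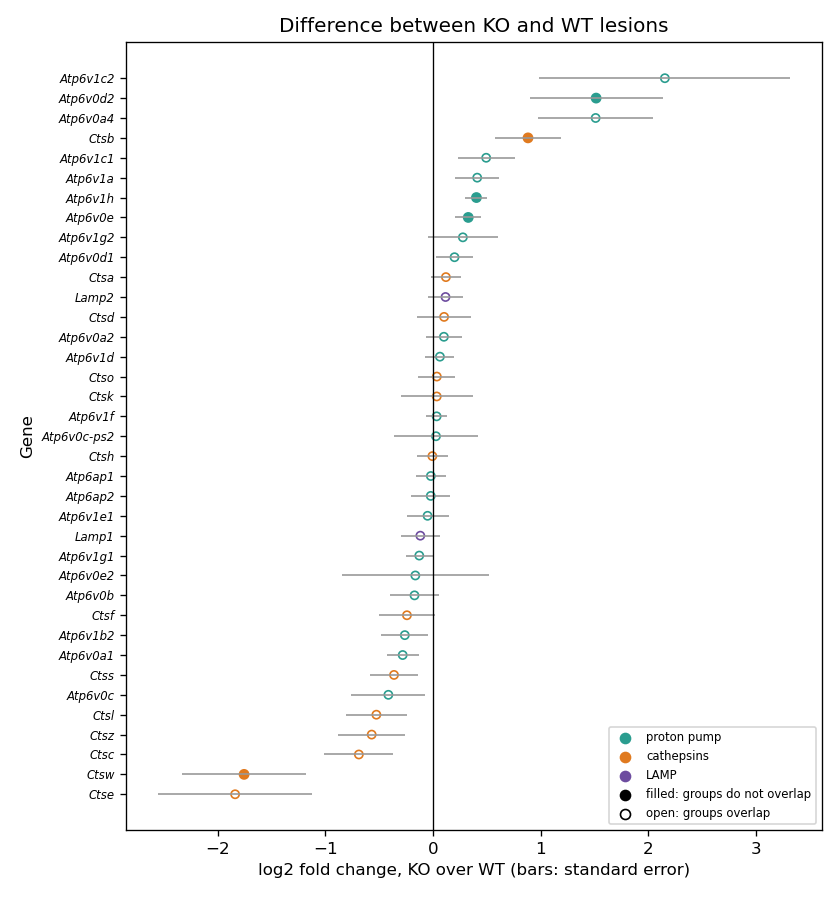
Log2 fold change of KO over WT ectopic lesions with its standard error for each of the 37 tested members, by role, from the edgeR fit. Filled points are members whose 3 KO and 3 WT lesions did not overlap, and open points are members whose groups overlapped, which most did.

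The V1 sector had 10 tested genes, of which 7 lay above 0 and 3 below, with a median log2 fold change of 0.17. Atp6v1h encodes subunit H, which joins the sectors and regulates the pump. It stood at 61.8, 68.5 and 65.7 CPM in WT lesions and at 83.6, 88.3 and 87.0 CPM in KO lesions. The KO lesions were all higher, and the spread within each group was small (65.3 ± 3.36 against 86.3 ± 2.41 CPM, SD, n = 3). The log2 fold change was 0.40 ± 0.10 (SE), with an adjusted p of 0.321 by edgeR and of 0.0718 by DESeq2 (0.0687 to 0.668 over all alternatives).

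The catalytic A subunit, Atp6v1a, stood at 235, 291 and 234 CPM in WT lesions and at 396, 350 and 263 CPM in KO lesions. KO replicate 3 fell within the WT range, and the log2 fold change was 0.41 ± 0.20 (SE). Its partner in the catalytic ring, Atp6v1b2, stood at 146, 235 and 156 CPM in WT and at 166, 140 and 141 CPM in KO lesions. Its groups overlapped and its log2 fold change was -0.26 ± 0.22 (SE), and -0.016 without WT replicate 2. Atp6v1b1, the B isoform known from kidney, inner ear and epididymis, was not tested, with a highest count of 14 in KO replicate 2.

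The remaining tested V1 genes encode the stalks and the rotor. Atp6v1f, of the rotor, was even across lesions, at 61.0, 65.5 and 65.5 CPM in WT and at 67.2, 66.0 and 63.2 CPM in KO lesions. Atp6v1d, Atp6v1e1, Atp6v1g1 and Atp6v1g2 overlapped between groups, with log2 fold changes from -0.13 to 0.28. Atp6v1c1, of the stalk that holds the catalytic ring in place, stood at 54.0, 64.8 and 54.2 CPM in WT and at 67.0, 115 and 61.3 CPM in KO lesions, so that KO replicate 2 was far above the rest. Its isoform Atp6v1c2 had the highest log2 fold change of the members, 2.15 ± 1.17 (SE), but rested on few reads, with counts of 10, 26 and 2 in WT and of 10, 126 and 52 in KO lesions.

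The V0 sector had 10 tested genes, 6 above and 4 below 0, with a median log2 fold change of 0.06. Its subunits a and d exist as isoforms that differ between tissues. Atp6v0d2, the d isoform known from osteoclasts and from some macrophages, stood at 7.64, 4.82 and 25.5 CPM in WT lesions and at 37.8, 36.6 and 34.0 CPM in KO lesions. KO lesions were all higher and close together, whereas WT lesions were spread over a wide range with WT replicate 3 nearest to KO. The log2 fold change was 1.51 ± 0.62 (SE, adjusted p by edgeR 0.338), and 2.51 without WT replicate 3.

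Atp6v0d1, the d isoform found in most cells, stood at 87.2, 130 and 97.4 CPM in WT and at 124, 121 and 117 CPM in KO lesions, within the WT range. Per kb of exon, Atp6v0d2 made up 5.47%, 2.39% and 14.7% of the RNA for subunit d in WT lesions and 16.7%, 16.7% and 16.1% in KO lesions (7.52% ± 6.42 against 16.5% ± 0.335, SD, n = 3). The d subunit was thus mostly Atp6v0d1 in all 6 lesions, as the plot of isoform shares shows. Summed markers of osteoclasts and giant cells, without genes that other lists hold, ran from 97.9 to 149 CPM in WT and from 91.5 to 148 CPM in KO lesions. This sum was led by Itgb3, at 49.3 to 111 CPM over all lesions, and by Nfatc1, at 21.4 to 47.0 CPM. Of the 6 markers summed, 4 were tested and 3 of these lay below 0, and none of the 6 was at 0 in all libraries. Dcstamp and Ocstamp, needed for the fusion of such cells, reached at most 2.09 and 1.24 CPM. Their part in the Atp6v0d2 level was not tested.

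Atp6v0a4, the a isoform known from kidney and other acid-secreting epithelia, stood at 22.4, 9.66 and 17.9 CPM in WT lesions and at 56.9, 66.2 and 19.3 CPM in KO lesions. KO replicates 1 and 2 stood above all WT lesions, whereas KO replicate 3 lay within the WT range. The log2 fold change was 1.51 ± 0.53 (SE, adjusted p by edgeR 0.328), and 1.20 without KO replicate 2. Summed markers of endometrial epithelium followed the same lesions, at 17571 and 12992 CPM in KO replicates 1 and 2, at 8895 CPM in KO replicate 3 and at 7732 to 11177 CPM in WT lesions, and 9 of the 10 markers summed lay above 0. The largest gene in this sum was Lcn2, which neutrophils also make. Ltf and Krt19 were left out of it because other lists hold them. Ltf, lactoferrin of uterine glands and of neutrophils, was the most abundant marker of the list, at 19058, 9882 and 15526 CPM in WT and at 33570, 25488 and 15673 CPM in KO lesions. Epcam, a surface protein of epithelial cells, stood at 468, 420 and 211 CPM in KO and at 240, 268 and 412 CPM in WT lesions. The part of epithelial content in the Atp6v0a4 level was not tested.

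Atp6v0a1 and Atp6v0a2, the other tested a isoforms among the members, overlapped between groups. Atp6v0a1 stood at 64.9, 81.1 and 80.6 CPM in WT and at 65.6, 54.2 and 66.4 CPM in KO lesions, and its log2 fold change was -0.28 ± 0.15 (SE). The a3 isoform of lysosomes and osteoclasts is named Tcirg1, so the symbol rule did not take it as a member. Tcirg1 stood at 28.1, 63.1 and 32.4 CPM in WT and at 28.9, 19.5 and 27.7 CPM in KO lesions. Per kb of exon and with Tcirg1 included, Atp6v0a4 made up 12.4%, 4.44% and 8.32% of the RNA for subunit a in WT lesions and 23.3%, 31.4% and 10.3% in KO lesions, while Atp6v0a2 was the leading isoform in all 6.

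**Figure D2:**
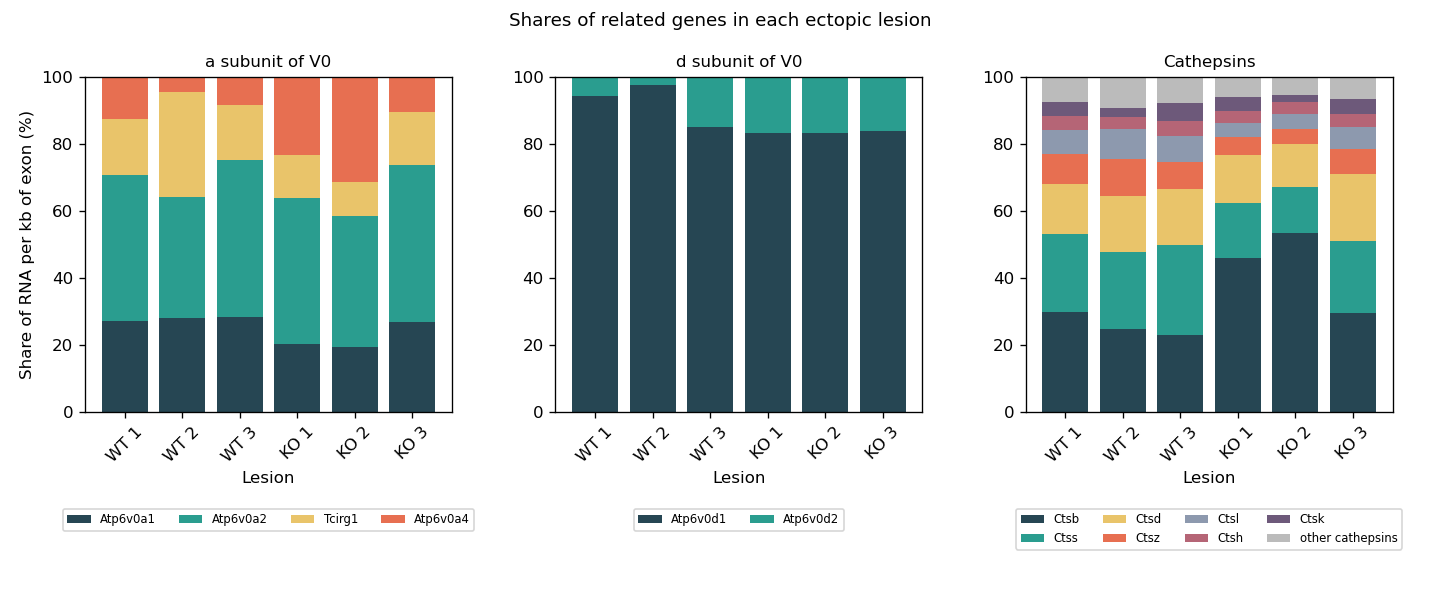
Share in percent of the RNA per kb of exon of related genes in each of the 3 WT and 3 KO ectopic lesions, for the a subunits of V0 (with Tcirg1), its d subunits and the cathepsins. Atp6v0a4 takes 23.3% and 31.4% in KO replicates 1 and 2, Atp6v0d2 takes 16.1% to 16.7% in KO lesions, and Ctsb takes 29.7% to 53.4% of cathepsin RNA in KO lesions against 23.2% to 29.8% in WT lesions.

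Atp6v0e, a small membrane subunit, stood at 101, 123 and 112 CPM in WT lesions and at 145, 138 and 138 CPM in KO lesions. Its groups did not overlap, and the log2 fold change was 0.33 ± 0.12 (SE, adjusted p by edgeR 0.332). Its isoform Atp6v0e2 varied more within groups than between them, at 28.6, 6.75 and 18.6 CPM in WT and at 7.75, 29.3 and 11.04 CPM in KO lesions. Atp6v0c and Atp6v0b encode the proteolipids of the rotating ring. Atp6v0c stood at 65.7, 133 and 58.5 CPM in WT and at 65.5, 53.1 and 74.0 CPM in KO lesions, and its log2 fold change of -0.42 ± 0.34 (SE) became 0.050 without WT replicate 2. The pseudogene Atp6v0c-ps2 can share reads with Atp6v0c, so the split between them is uncertain. The accessory subunits Atp6ap1 and Atp6ap2, which aid the assembly of the pump, both had a log2 fold change of -0.02. Atp6ap1 stood at 190, 232 and 204 CPM in WT and at 223, 197 and 198 CPM in KO lesions.

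**Figure D3:**
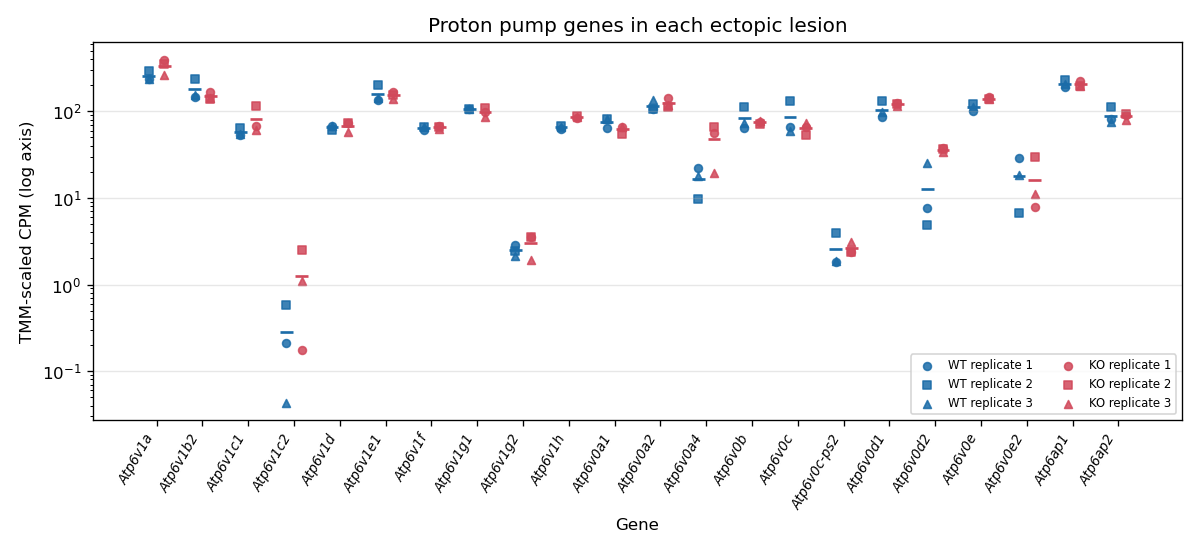
TMM-scaled CPM on a log axis of the tested proton pump genes in each of the 3 WT and 3 KO ectopic lesions, with 1 point per lesion and a bar at each group mean. Atp6v1h, Atp6v0e and Atp6v0d2 have all KO lesions above all WT lesions, and WT replicate 2 is the highest lesion for Atp6v0c at 133 CPM.

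Of the cathepsins, Ctsb stood apart from the rest. It encodes cathepsin B, a cysteine protease of most cell types that can also be secreted, and it was at 2635, 3016 and 2239 CPM in WT lesions and at 5226, 6008 and 3305 CPM in KO lesions. All KO lesions were higher, with KO replicate 3 close to WT replicate 2 and the others well above it (2630 ± 388 against 4846 ± 1391 CPM, SD, n = 3). The log2 fold change was 0.88 ± 0.31 (SE), with an adjusted p of 0.328 by edgeR and of 0.0729 by DESeq2 (0.0650 to 0.668 over all alternatives). Leaving out KO replicate 3 gave 1.10 and leaving out KO replicate 2 gave 0.70. As for Atp6v0a4, KO replicates 1 and 2 were the lesions with the highest summed epithelial markers. Among WT lesions the order differed, since WT replicate 3 had the highest sum (11177 CPM) and the lowest Ctsb. WT replicate 2 had the lowest sum (7732 CPM) and the highest Ctsb of the WT lesions. The part of epithelial content in the Ctsb level was not tested.

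Per kb of exon, cathepsin RNA was divided mainly among Ctsb, Ctss and Ctsd. In WT lesions Ctsb and Ctss stood near each other, at 435 and 409 CPM per kb on average, and in KO lesions at 801 and 318 CPM per kb. Ctsb made up 29.8%, 24.9% and 23.2% of cathepsin RNA in WT lesions and 46.1%, 53.4% and 29.7% in KO lesions, where KO replicate 3 fell just within the WT range. Ctss, the cathepsin of antigen-presenting cells that cuts the invariant chain, made up 23.4%, 23.0% and 26.7% in WT and 16.4%, 13.8% and 21.3% in KO lesions. These shares of 1 whole are not independent, since a higher share of Ctsb lowers the others.

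A further set of cathepsins was highest in WT replicate 2 and overlapped between groups. Ctsc, which activates the granule proteases of leukocytes, stood at 289, 584 and 357 CPM in WT and at 244, 201 and 318 CPM in KO lesions. Ctsl, a broad endopeptidase, stood at 668, 1139 and 818 CPM in WT and at 511, 535 and 776 CPM in KO lesions. Ctsz, a carboxypeptidase abundant in myeloid cells, stood at 186, 320 and 183 CPM in WT and at 142, 118 and 204 CPM in KO lesions, and Ctss at 464, 625 and 579 against 418, 348 and 531 CPM. Their log2 fold changes were -0.69, -0.53, -0.57 and -0.36. Over all alternatives they ran from -1.22 to -0.35, -0.92 to -0.29, -1.06 to -0.25 and -0.55 to -0.23. In each of these genes KO replicate 3 had the highest KO value.

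Summed macrophage markers were likewise highest in WT replicate 2 and, among KO lesions, in KO replicate 3, at 2711, 8048 and 3526 CPM in WT and at 2024, 1565 and 3483 CPM in KO lesions. All 14 markers of that list lay below 0, with a median log2 fold change of -1.02, and none was at 0 in all libraries. Without WT replicate 2 that median was -0.49. Lyz2 was the largest gene in the macrophage sum, at 3555 CPM in WT replicate 2. The sums for neutrophils, T and NK cells, dendritic cells, endothelium and adipocytes peaked in WT replicate 2 and KO replicate 3 within groups. Adipocyte markers stood at 4344 CPM in WT replicate 2 and at 6256 CPM in KO replicate 3. The part of macrophages or of these other cells in the levels of Ctsc, Ctsl, Ctsz and Ctss was not tested.

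Ctsw, also called lymphopain and known from cytotoxic lymphocytes and NK cells, was low throughout, at 1.45, 2.03 and 1.11 CPM in WT lesions and at 0.246, 0.278 and 0.834 CPM in KO lesions. It was the member whose KO lesions were all lower, with a log2 fold change of -1.76 ± 0.58 (SE, adjusted p by edgeR 0.328). Summed markers of T and NK cells stood at 35.1, 97.9 and 36.1 CPM in WT and at 13.0, 8.86 and 26.5 CPM in KO lesions, with 12 of 13 markers below 0. Cd3e, a chain of the T cell receptor complex, stood at 4.996, 11.9 and 4.23 CPM in WT and at 1.75, 0.636 and 3.29 CPM in KO lesions. Cd4 was the largest gene in the sum. Of the list's markers of cytotoxic and NK cells, Cd8a, Gzmb and Nkg7 were lower without overlap, with log2 fold changes of -1.81, -2.49 and -1.15. Gzma, Prf1, Ncr1 and Klrb1c overlapped between groups, at -0.34, -0.29, -0.27 and 0.38. The part of T and NK cells in the Ctsw level was not tested.

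Ctse, an aspartic protease of stomach, skin and immune cells, stood at 7.60, 58.6 and 20.1 CPM in WT lesions and at 8.26, 9.52 and 6.31 CPM in KO lesions. WT replicate 2 was far above the rest and WT replicate 1 lay within the KO range. The log2 fold change of -1.84 ± 0.72 (SE) was -0.78 without WT replicate 2, the lesion with the highest neutrophil, macrophage and T cell markers.

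The aspartic protease Ctsd, a major cathepsin of lysosomes with a pair of E-box matches above, stood at 514, 780 and 629 CPM in WT and at 631, 570 and 862 CPM in KO lesions. Its groups overlapped, and its log2 fold change was 0.10 ± 0.25 (SE). Ctsa, a serine carboxypeptidase that also protects other lysosomal enzymes, stood at 206, 242 and 203 CPM in WT and at 253, 227 and 226 CPM in KO lesions, and its log2 fold change was 0.12 ± 0.14 (SE).

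Ctsh, an aminopeptidase, stood at 275, 338 and 314 CPM in WT and at 304, 299 and 319 CPM in KO lesions, and its log2 fold change was -0.01. Ctsk, the collagen-degrading cathepsin of osteoclasts and fibroblasts, stood at 92.5, 75.8 and 129 CPM in WT and at 123, 60.3 and 121 CPM in KO lesions. Its spread within either group was larger than the difference between them. Ctso and Ctsf also overlapped, with log2 fold changes of 0.03 and -0.24.

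**Figure D4:**
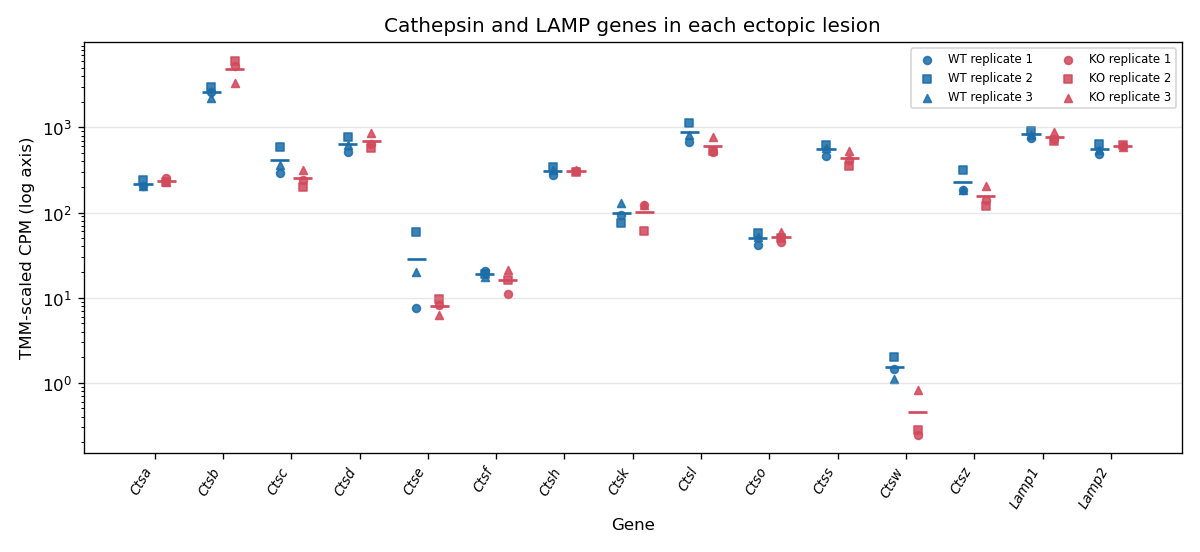
TMM-scaled CPM on a log axis of the tested cathepsin and LAMP genes in each of the 3 WT and 3 KO ectopic lesions, with 1 point per lesion and a bar at each group mean. Ctsb has all KO lesions above all WT lesions, Ctsw has all KO lesions below, and the other genes overlap.

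Lamp1, which holds 4 E-box matches, stood at 755, 912 and 820 CPM in WT and at 727, 688 and 876 CPM in KO lesions. Lamp2, a receptor of chaperone-mediated autophagy in 1 of its forms, stood at 492, 636 and 547 CPM in WT and at 603, 628 and 583 CPM in KO lesions. Both overlapped between groups, with log2 fold changes of -0.12 ± 0.18 and 0.12 ± 0.16 (SE). Of the 5 members whose groups did not overlap, 1, Atp6v0e, had a promoter in the table, so the motif was not set against the difference between groups.

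The 12 members that were not tested had few or no reads. Atp6v1e2, Atp6v1g3, Ctsj, Ctsq, Ctsr and Lamp5 had a count of 0 in all 6 libraries. The highest count in any library was 14 for Atp6v1b1, 10 for Lamp3, 7 for Ctsg, 6 for Atp6v0c-ps1, 4 for Atp6v1fnb and 2 for Ctsm. The 7 reads of Ctsg, the granule protease of neutrophils, were all in WT replicate 2. Ctsj, Ctsm, Ctsq and Ctsr belong to a cluster of cathepsins known from the rodent placenta.

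Some lesions were the highest or the lowest more often than others. WT replicate 2 was the highest of the 6 lesions for 18 of the 37 tested members (48.6%), beside 24.2% of all tested genes, and WT replicate 1 was the lowest for 14 (37.8%), beside 15.5% of all tested genes. No member was highest in WT replicate 1, and 1 was highest in WT replicate 3. These are the lesions whose immune and skeletal muscle markers stand apart, and the part of this makeup in the members' levels was not tested.

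Other genes of the lysosome were taken from lists of known function. At an unadjusted p under 0.05, 5 of 35 tested hydrolases and their activators were higher and 0 lower in KO lesions. Over all tested genes 6.55% were higher and 8.16% lower. These are mostly enzymes that degrade glycans and lipids. The median log2 fold change of this list was 0.13, and 0.019 without KO replicate 3. Galns, which removes sulfate from keratan sulfate, stood at 29.0, 23.7 and 22.6 CPM in WT and at 48.0, 40.6 and 35.3 CPM in KO lesions. Lgmn, an asparaginyl protease that processes cathepsins, stood at 306, 367 and 264 CPM in WT and at 168, 127 and 280 CPM in KO lesions, with overlap. Gla, alpha-galactosidase, had a log2 fold change of -0.81 that rested on 73.3 CPM in WT replicate 2, and it was 0.13 without that lesion.

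Of 22 tested membrane and transport genes of the lysosome, 2 were higher and 0 lower at that level. The shares over all genes were 6.55% and 8.16%. The median of this list was -0.10 and became 0.11 without WT replicate 2. Laptm4b stood at 66.2, 71.9 and 61.2 CPM in WT and at 89.1, 131 and 101 CPM in KO lesions. Gpnmb, a glycoprotein of macrophages under lysosomal stress and of pigment cells, stood at 148, 56.4 and 258 CPM in WT and at 332, 276 and 316 CPM in KO lesions, and like Atp6v0d2 it was highest among WT lesions in WT replicate 3. Slc11a1, a metal transporter of phagocytes, had a log2 fold change of -1.36 that was 0.079 without WT replicate 2.

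Of 15 tested genes that sort enzymes to the lysosome, 1 was higher and 1 lower at that level. The shares over all genes were 6.55% and 8.16%. Sort1, which encodes sortilin, stood at 173, 153 and 189 CPM in WT and at 317, 322 and 250 CPM in KO lesions, a log2 fold change of 0.79 ± 0.17 (SE, adjusted p 0.321 by edgeR and 0.0063 by DESeq2, 0.0063 to 0.668 over all alternatives). Igf2r, the mannose 6-phosphate receptor that carries cathepsins to lysosomes, stood at 175, 160 and 131 CPM in WT and at 106, 93.2 and 127 CPM in KO lesions. Both were without overlap, in opposite directions. Ap1m1, of the adaptor that packs such cargo at the Golgi, overlapped between groups.

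Of 16 tested genes of the TFEB family and of the Ragulator and Rag complex, 2 were lower and 0 higher at that level. The shares over all genes were 8.16% and 6.55%. The complex recruits mTORC1 to the lysosome, and the median of this list was -0.19. Tfeb, a transcription factor that binds the E-box shown above, stood at 19.3, 16.5 and 14.5 CPM in WT and at 7.51, 6.04 and 9.38 CPM in KO lesions. The groups were far apart, with a log2 fold change of -1.13 ± 0.22 (SE, adjusted p 0.321 by edgeR and 0.00271 by DESeq2, 0.00271 to 0.668 over all alternatives). Its relatives Tfe3, Mitf and Tfec had log2 fold changes of -0.50, -0.22 and -1.40, and their groups overlapped. Tfe3 stood at 48.4, 90.9 and 47.6 CPM in WT lesions. Over all alternatives its log2 fold change ran from -1.07 to -0.13, and that of Tfec from -2.17 to -0.79. Rragd had a log2 fold change of -3.31 that rested on 107 and 121 CPM in WT replicates 1 and 3, the lesions with skeletal muscle markers, against 6.08 CPM in WT replicate 2.

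Of these lists the inhibitors of cathepsins lay lowest. All 9 of the tested inhibitors lay below 0, with a median log2 fold change of -1.85. That median was -0.31 over those with at least 10 counts in every library. Of the 9, BC100530 reached the filter level of 0.206 CPM in WT lesions alone, so the filter fixed its side. At an unadjusted p under 0.05, 5, BC100530 among them, were lower and 0 higher. The shares over all genes were 8.16% and 6.55%. Of those named, Stfa2l1 and BC100530, stefins known from neutrophils, stood at 156 and 12.9 CPM in WT replicate 2, against at most 8.11 and 0.598 CPM in the other 5 lesions, as the summed neutrophil markers did. The part of neutrophils in these levels was not tested, and genes of this stefin cluster are near copies of each other, so the split of reads among them is uncertain. Cst6 stood at 4.996, 0.270 and 3.20 CPM in WT and at 0.0351, 0.477 and 0.250 CPM in KO lesions. With each lesion left out in turn the median of the tested inhibitors ran from -1.15, without WT replicate 2, to -3.10, without KO replicate 3. The abundant inhibitors lay nearer 0. Cst3, cystatin C, stood at 294, 301 and 263 CPM in WT and at 199, 181 and 318 CPM in KO lesions, and Cstb, which inhibits cathepsin B in the cytosol, at 76.5, 179 and 85.9 against 91.9, 87.5 and 94.9 CPM. Both overlapped between groups, with log2 fold changes of -0.30 and -0.32.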

How the data were processed

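Whole ectopic lesions (3 WT, 3 KO) were profiled with stranded poly(A) libraries. The authors deposited whole-number read counts per gene without normalization, and the 6 tables of single samples equal the table of the series. The submitters' processing notes name Trimmomatic, featureCounts, DESeq2 and GRCm39, while the methods name GRCm38. The aligner, annotation release and strand setting are not given in the sources used here, so overlapping or antisense genes may share reads. Of counts from 1 to 50, 88.1% to 89.6% per library were even numbers, so reads of a pair may have been counted singly.

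Symbols and exon lengths came from GENCODE M21 (GRCm38), in which 51948 of 56884 identifiers were matched without their version and 35 with it. Identifiers without a symbol held 3.04% to 3.56% of the counts. Genes were kept by filterByExpr (18177 genes), scaled by TMM and tested with edgeR 4.0.16 (R 4.3.3) with genotype as the only term, with Benjamini-Hochberg adjustment over all tested genes. SEs are log2 fold changes divided by the root of F. The common biological coefficient of variation was 44.2%. DESeq2 1.42.0 and limma 3.58.1 voom served as alternatives. The scripts were tested on simulated data. With 3 lesions against 3, an exact permutation test of 1 gene cannot go below p = 0.1, so none was used. Counts hold no molecular identifiers, and donors were separate animals per the methods.

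Members and gene lists were chosen with earlier results of these data known. Named by rule were members that passed the filter, the others by their highest count, Dnmt3a, of each list of lysosomal genes the 3 with the largest absolute log2 fold change at a mean of at least 1 CPM, and Tcirg1, Tfeb, Tfe3, Mitf, Tfec, Cst3 and Cstb. Epcam, Lcn2, Ltf, Krt19, Dcstamp, Ocstamp and Cd3e were named after their values were seen. So were Lyz2, Itgb3, Nfatc1, Cd4, Cd8a, Gzmb, Nkg7, Gzma, Prf1, Ncr1 and Klrb1c. Promoters are RefSeq sequences of GRCm38.p6, and coordinates are given for them alone.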

Additional observations from a re-analysis of the deposited data

How the results depend on the processing

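The fits were repeated under 13 alternatives set out at the start, and under 1 added after seeing the data that leaves out WT replicates 1 and 3. Counts without overlap were not recomputed for DESeq2, voom and the block, and isoform shares were recomputed without exon length and with each lesion left out. Counts of highest and lowest lesions and of motifs were not recomputed. No member passed an adjusted p of 0.05 under any of these 14. The causes of the shifts below were not tested. Members lower at an unadjusted p under 0.05 numbered 2, but 1 with upper quartile scaling (2.70%, beside 6.49% of all genes), 5 with limma voom (13.5%, beside 15.9%) and 0 to 4 when each lesion was left out in turn (beside 3.70% to 12.4%). Members higher numbered 5, but 8 with voom (21.6%, beside 14.3%) and 1 to 4 when each lesion was left out (beside 2.64% to 11.5%). Members without overlap numbered 1 lower and 4 higher, against 1 to 7 (beside 11.2% to 22.3% of all genes) and 4 to 10 (beside 13.0% to 25.0%) with each lesion left out, where fewer lesions overlap less often by construction. Deviations of same-numbered lesions correlated at 0.03, -0.15 and -0.20, so the replicate numbers of the labels showed no pairing. Those of different-numbered lesions correlated at -0.15 to 0.23. These values cannot exclude a shared day or batch, since the lesions also differed widely in makeup. With a replicate block, 1 member was lower and 2 were higher at an unadjusted p under 0.05 (beside 4.33% and 3.37% of all genes), and Ctsk was at -0.0041.

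Without WT replicates 1 and 3, the lone WT lesion is assumed to vary like the KO lesions. Then 6 members were lower and 1 higher at an unadjusted p under 0.05 (16.2% and 2.70%, beside 10.1% and 4.28% of all genes), 19 lay lower and 7 higher without overlap (51.4% and 18.9%, beside 31.6% and 32.1%), and the members' median was -0.16 instead of 0.03.

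Of the 37 tested members, 16 changed sign in some alternative, most of them near 0. Without WT replicates 1 and 3 the log2 fold change was -0.023 for Atp6v1f, -0.060 for Ctsa, -0.094 for Lamp2, -0.13 for Atp6v0d1, -0.19 for Ctso, -0.20 for Ctsd, -0.62 for Atp6v0c-ps2 and 1.23 for Atp6v0e2, and for Rragd, no member, it was 0.35. With voom it was -0.23 for Ctsk, 0.024 for Ctsh, 0.035 for Atp6v0b, 0.063 for Atp6ap1, 0.16 for Atp6v1e1, 0.18 for Atp6ap2 and, outside the members, 0.065 for Cstb. Upper quartile scaling, which moved the median of all genes from 0.01 to 0.11, gave 0.044 for Atp6v1e1, 0.074 for Atp6ap2 and Atp6ap1 and 0.088 for Ctsh. With each lesion left out in turn, the range was -0.085 to 0.063 for Atp6ap1, -0.16 to 0.16 for Atp6ap2, -0.013 to 0.21 for Atp6v0a2, -0.33 to 0.11 for Atp6v0b, -0.65 to 0.050 for Atp6v0c, -0.17 to 0.49 for Atp6v0c-ps2, -0.93 to 0.34 for Atp6v0e2, -0.16 to 0.16 for Atp6v1e1, -0.0014 to 0.059 for Atp6v1f, -0.092 to 0.27 for Ctsd, -0.084 to 0.064 for Ctsh, -0.13 to 0.30 for Ctsk and -0.083 to 0.15 for Ctso. It was -0.53 to 0.17 for Cstb, -1.14 to 0.13 for Gla, -0.57 to 0.022 for Mitf and -1.86 to 0.079 for Slc11a1.

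Without division by exon length, Ctsb took 43.6% of cathepsin counts in WT and 62.0% in KO lesions, instead of 26.0% and 43.0% per kb, and Atp6v0d2 took 23.1% of d subunit counts in KO lesions instead of 16.5%. With each lesion left out in turn, these means per kb ran from 24.1% to 27.4% and 37.9% to 49.7% for Ctsb, from 3.93% to 10.1% and 16.4% to 16.7% for Atp6v0d2, and from 6.38% to 10.4% and 16.8% to 27.3% for Atp6v0a4. For genes with few reads, such as Atp6v1c2, depth limits what can be seen.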
